A study of Mus musculus with 10 samples.

Results

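The proteasome genes of foetal mouse limb muscle are described here, across the GDM and CTR groups. All genes whose name begins with Psma, Psmb, Psmc, Psmd, Psme, Psmf or Psmg and a number were taken, without the 5 names marked as pseudogenes by -ps. This gave 50 of the 55401 genes in the table. They comprised 7 alpha and 7 constitutive beta subunits of the 20S core, 3 immunoproteasome subunits, 2 tissue-restricted core subunits, 9 subunits of the 19S base, 8 of the 19S lid, 6 genes of activators and the regulator PI31, and 7 assembly chaperones. The name rule also took Psmc3ip, a partner of meiotic recombinases that is not a proteasome subunit.

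RNA was sequenced from limb muscle of wild-type ICR foetuses at embryonic day (ED) 18.5, with 5 samples in each group. Dams of the GDM group were injected with streptozotocin, which kills pancreatic beta cells, at gestational days (GD) 6.5 and 12.5, and CTR dams received buffer. The study describes its foetal muscle as that of males, and the labels state neither sex nor litter, so that each p measures the spread between samples, some of which may share a dam. No group separated the agent from the raised maternal glucose, and the tissue was a mixture of cells.

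The 26S proteasome degrades proteins that carry ubiquitin. Its barrel-shaped 20S core is built of alpha rings, which gate entry, and beta rings, which hold the proteolytic sites, and its 19S particle is built of a base, which unfolds substrates, and a lid, which removes ubiquitin. In muscle it is a main route of protein breakdown and is known for its part in atrophy. Interferons induce the immunoproteasome subunits, which take the place of the constitutive catalytic subunits and favour peptides for antigen presentation.

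To show sequence context, the 250 bases before the transcription start are given for some members. Psmb3, Psmd4 and Psmb6 were lower in GDM muscle. Psmg1 and Psmd10 were higher in the deposited values and did not pass after scaling between libraries, described below. Psmb8 is an immunoproteasome gene. The sequences come from RefSeq on GRCm38.p6 and are written 5′ to 3′ on the strand of the gene. The Psmb8 window lies before a RefSeq start but inside the GENCODE span of that gene (chr17:34197721-34201454). Capitals mark every match, on either strand, to TGACNNNGC, the core of the antioxidant response element, to the core of the interferon-stimulated response element, to TTCNNNGAA, the core of STAT sites, and to CCAAT, the box of NF-Y. Every printed window holds a match, so the printed windows do not stand for all changed members. The windows of Psmd8, which was lower, and Psmg3, which was higher as deposited, held no match and are not printed.
Psmb3 (chr11:97703184-97703433, plus strand): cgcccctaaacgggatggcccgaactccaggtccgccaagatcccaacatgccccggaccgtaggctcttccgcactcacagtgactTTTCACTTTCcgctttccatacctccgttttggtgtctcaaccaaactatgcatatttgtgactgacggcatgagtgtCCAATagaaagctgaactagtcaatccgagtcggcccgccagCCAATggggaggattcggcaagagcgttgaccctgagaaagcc
Psmd4 (chr3:95042615-95042864, minus strand): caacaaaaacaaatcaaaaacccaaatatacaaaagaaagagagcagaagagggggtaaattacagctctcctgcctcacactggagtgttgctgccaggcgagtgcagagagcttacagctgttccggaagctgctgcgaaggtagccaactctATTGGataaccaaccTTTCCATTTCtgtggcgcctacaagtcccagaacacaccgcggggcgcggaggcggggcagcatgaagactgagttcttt
Psmb6 (chr11:70525107-70525356, plus strand): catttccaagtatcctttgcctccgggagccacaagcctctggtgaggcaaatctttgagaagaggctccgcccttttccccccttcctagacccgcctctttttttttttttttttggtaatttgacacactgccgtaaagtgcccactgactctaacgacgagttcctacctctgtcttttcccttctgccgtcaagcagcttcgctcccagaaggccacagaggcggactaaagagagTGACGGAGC
Psmg1 (chr16:95990961-95991210, minus strand): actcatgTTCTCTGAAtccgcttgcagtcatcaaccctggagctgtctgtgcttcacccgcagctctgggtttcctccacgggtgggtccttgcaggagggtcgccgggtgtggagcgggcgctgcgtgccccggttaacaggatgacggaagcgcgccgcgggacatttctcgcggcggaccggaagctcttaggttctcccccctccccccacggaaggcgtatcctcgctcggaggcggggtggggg
Psmd10 (chrX:140956712-140956961, minus strand): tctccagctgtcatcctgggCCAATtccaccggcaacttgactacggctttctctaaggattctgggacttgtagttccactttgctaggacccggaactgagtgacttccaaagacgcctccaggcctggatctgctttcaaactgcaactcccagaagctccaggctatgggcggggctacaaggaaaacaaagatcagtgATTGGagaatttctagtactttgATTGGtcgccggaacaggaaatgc
Psmb8 (chr17:34197945-34198194, plus strand): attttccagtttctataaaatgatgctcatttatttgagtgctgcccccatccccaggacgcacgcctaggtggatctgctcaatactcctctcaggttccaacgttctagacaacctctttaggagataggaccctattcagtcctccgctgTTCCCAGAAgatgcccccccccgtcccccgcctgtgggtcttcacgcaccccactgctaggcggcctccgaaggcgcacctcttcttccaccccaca

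Of the 50 members, 42 had such a window, 45 windows in all. TGACNNNGC was present in 11.1% of these windows and in 10.2% of the 32851 windows of all genes, and its members were Psmb5, Psmb6, Psmc6, Psmd9 and Psmd12. CCAAT was present in 33.3% and 33.8%, and TTCNNNGAA in 4.44% and 7.02%, the latter in Psmb8 and Psmg1. The core of the interferon-stimulated response element was found in 3 members, Psmb3, Psmd4 and Psmd9, which is 6.67% of the windows against 2.98% of all. These matches are descriptions of the letters and not evidence of binding.

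Values are FPKM, fragments scaled by transcript length and by the mapped fragments of the library, and can be compared between genes. Depth, estimated from the lowest values of single-transcript genes, was 17.5 to 20.8 M fragments for GDM and 14.4 to 16.5 M for CTR libraries. Every GDM library was deeper, and group and depth cannot be told apart. Mitochondrially encoded genes took 9.43% to 12.3% of all FPKM in the GDM group and 16.3% to 19% in the CTR group. Genes with at least 1 FPKM in at least 5 libraries, 13363 in all and 46 of the members, were tested with limma on log2(FPKM + 1), a scale that understates changes of weakly expressed genes. All tested genes together had a median log2 fold change of 0.15. Median ratio scaling between libraries shifted it by -0.16, and both forms are given, as deposited and scaled. The muscle label held for the defining genes, with 12 muscle fibre markers that summed to 19680 to 27300 FPKM in GDM samples and 33870 to 40170 FPKM in CTR samples. Of these markers 9 were lower and Myh3, embryonic myosin, was higher. Fat cell markers summed to 47.8 to 66.0 FPKM in GDM samples and 304 to 1870 FPKM in CTR samples, and endothelial markers to 103 to 120.5 FPKM and 129 to 165 FPKM. Adipoq, the adiponectin gene, stood at 254 FPKM in CTR replicate 2 and at 36.1 to 57.1 FPKM in the remaining CTR libraries. In bulk tissue, fewer cells of a type and less RNA per cell cannot be told apart, and the part of tissue composition in the proteasome results was not tested.

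Proteasome genes were expressed over a wide range of levels. Psma6, an alpha subunit, had the highest mean over the 10 samples (124 FPKM), and the 31 constitutive subunits of core, base and lid ranged from there down to Psmd11 of the lid (9.88 FPKM). Assembly chaperones ranged from 3.47 to 21.2 FPKM. The immunoproteasome subunits reached 4.30 FPKM for Psmb10, 0.911 FPKM for Psmb8 and 0.428 FPKM for Psmb9. Psmb8, Psmb9, Psma8 and Psmb11 did not pass the filter.

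**Figure D1:**
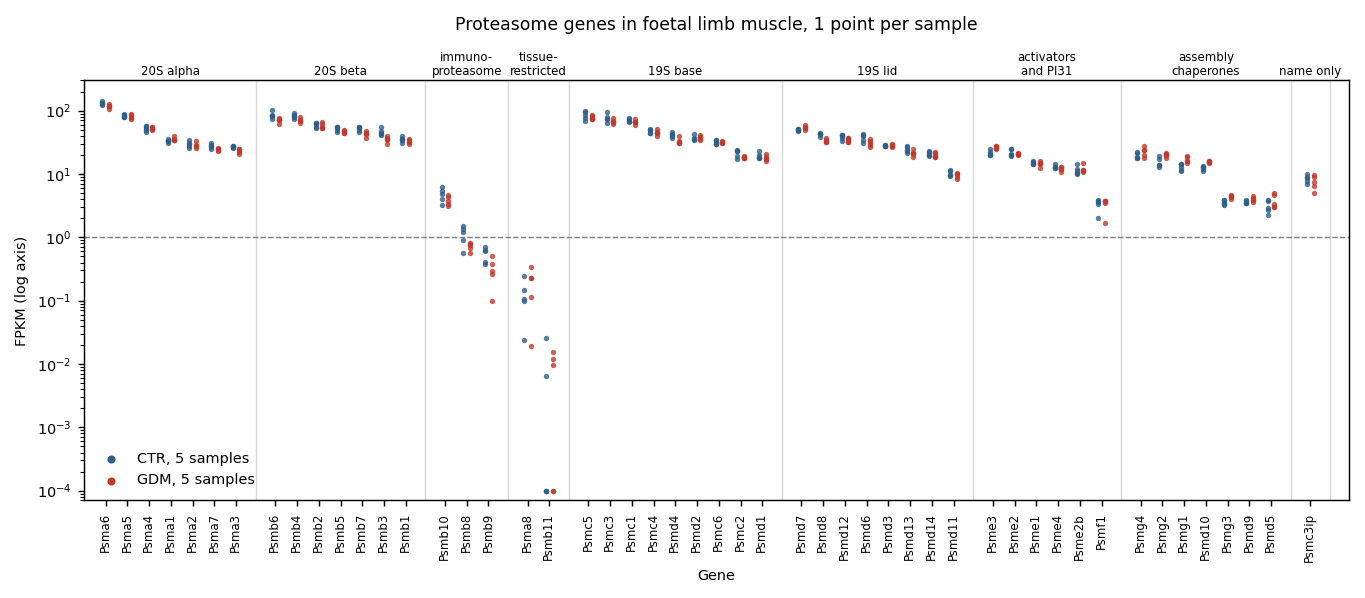
FPKM (log axis) of the 50 proteasome genes by role, with 1 point for each of the 5 CTR samples (blue) and 5 GDM samples (red). The dashed line marks 1 FPKM, the lowest points of Psmb11 lie at the floor of 0.0001 FPKM, and only Psmb8, Psmb9, Psma8 and Psmb11 lie mostly below 1 FPKM.

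As deposited, 11 proteasome genes passed the test. Of the 46 tested members, 5 were higher in GDM muscle (10.9%) against 35.1% of all tested genes, and 6 were lower (13.0%) against 10.9% of all, a share near that of the background. Leaving out CTR replicate 2 or CTR replicate 3 gave 10 lower members in place of 6. All 6 lower members were subunits of core, base or lid, while 4 of the 5 higher members were assembly chaperones and the fifth was the activator Psme3. Every GDM sample was above every CTR sample in 4 members (8.70%, against 27.2% of all tested genes) and below in 3 (6.52%, against 7.43%). After scaling, 0 members were higher (19.2% of all tested genes), 30 were lower (65.2%, against 19.4%) and 16 did not pass. Groups then did not overlap in 19 members, all with GDM samples below (41.3%, against 14.4%), and in 0 members with GDM samples above (14.7% of all). Beside the 0 higher members, 7 of the 46 scaled fold changes were positive, and leaving out CTR replicate 1 gave 1 higher member. The constitutive subunits made up 0.386% ± 0.0236 of all FPKM in GDM samples and 0.383% ± 0.0235 in CTR samples (SD, n = 5 each). Without mitochondrially encoded genes in the sum, these shares were 0.435% ± 0.0211 and 0.464% ± 0.0261, and the groups overlapped in both forms.

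**Figure D2:**
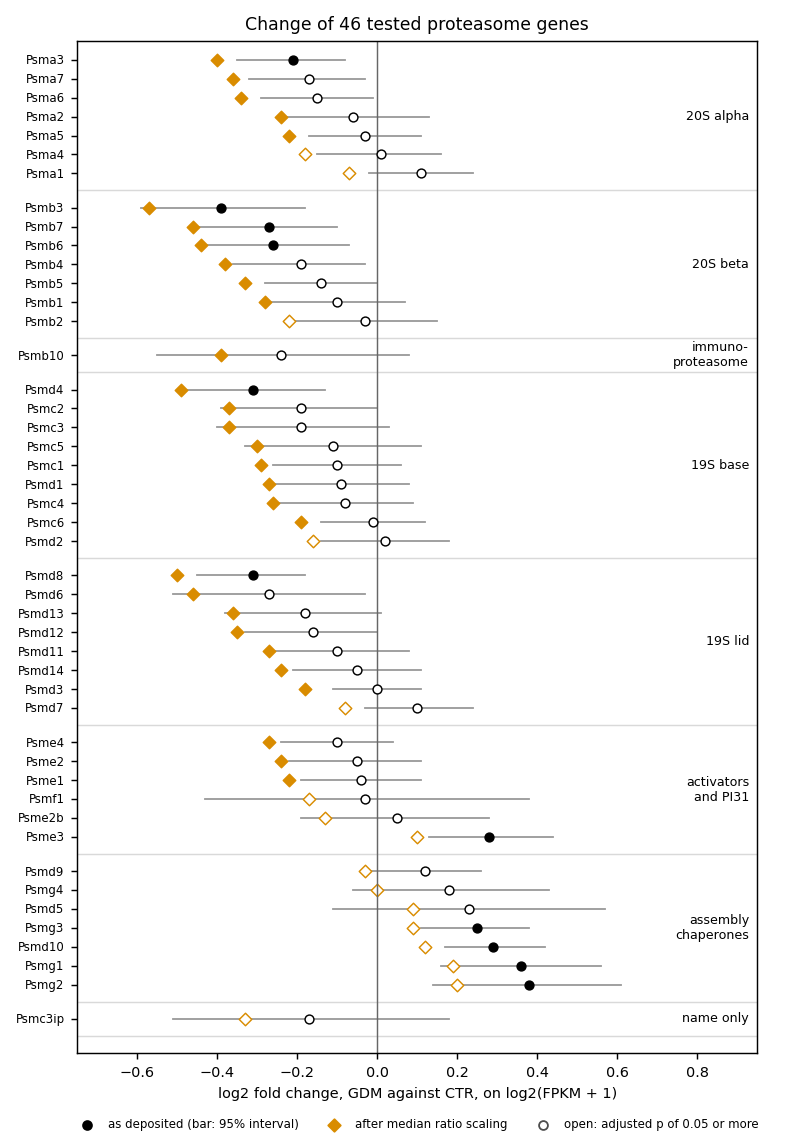
Log2 fold change, GDM against CTR, on the log2(FPKM + 1) scale for the 46 tested proteasome genes, as deposited (circles, bars 95% intervals) and after median ratio scaling (diamonds), with filled symbols for an adjusted p under 0.05 in limma. As deposited, 6 subunits are filled on the left and 4 chaperones and Psme3 on the right. After scaling, 30 diamonds are filled, all on the left.

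The alpha ring changed little as deposited. Psma3 was lower among its 7 genes, 0 were higher and 6 did not pass, with a median log2 fold change of -0.06 (0.15 over all tested genes). Psma3 (ENSMUSG00000060073, chr12:70974621-70996347) stood at 20.4, 25.1, 24.9, 23.3 and 22.1 FPKM in GDM replicates 1 to 5 and at 26.2, 27.0, 27.7, 26.6 and 27.3 FPKM in CTR replicates 1 to 5. The groups did not overlap, and the log2 fold change was -0.21 (standard error 0.06, adjusted p = 0.016 in limma).

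Psma7 had 23.7, 25.4, 24.9, 25.0 and 23.1 FPKM in GDM samples against 28.7, 26.8, 24.5, 27.7 and 31 FPKM in CTR samples. Psma6, the most abundant subunit, had 106, 126, 118, 119 and 120.0 FPKM against 140.0, 133, 132, 121 and 129 FPKM. In both genes the groups overlapped and the change did not pass as deposited, with log2 fold changes of -0.17 (adjusted p = 0.051 in limma) and -0.15 (0.076). Psma4, the alpha gene with the least change, had 50.9, 55.2, 53.0, 55.8 and 49.1 FPKM in GDM samples and 51.8, 46.4, 50.4, 57.2 and 57.5 FPKM in CTR samples, a log2 fold change of 0.01 as deposited and -0.18 scaled. The remaining Psma1, Psma2 and Psma5 had log2 fold changes of 0.11, -0.06 and -0.03. After scaling, 5 of the 7 alpha genes were lower (Psma2, Psma3, Psma5, Psma6 and Psma7), with a median of -0.24. The share of all tested genes lower after scaling was 19.4%.

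The constitutive beta ring had 3 lower genes of 7, 0 higher genes and the lowest median of the core, base and lid, -0.19. Among all tested genes 10.9% were lower and 35.1% higher as deposited. Psmb3, a non-catalytic subunit (ENSMUSG00000069744, chr11:97703399-97713500), had 35.6, 40.2, 36.5, 34.4 and 30.2 FPKM in GDM samples and 48.4, 42.8, 41.8, 44.6 and 55.2 FPKM in CTR samples. All GDM samples lay below all CTR samples, and the fold change of -0.39 on the log2 scale (standard error 0.09, adjusted p = 0.0065 in limma) was the lowest of all tested members, as it was after scaling (-0.57).

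The 3 catalytic subunits of the constitutive core carry different specificities. Psmb6, of caspase-like activity (chr11:70525367-70527858), had 62.1, 75.0, 75.5, 70.2 and 72.1 FPKM in GDM samples and 85.2, 74.8, 82.2, 82.9 and 101.1 FPKM in CTR samples. Psmb7, of trypsin-like activity (chr2:38588036-38644087), had 37.1, 48.1, 43.7, 42.6 and 43.5 FPKM against 55.1, 46, 50.1, 53.8 and 55.7 FPKM. Both were lower, and in both CTR replicate 2 lay within the range of the GDM samples. Their log2 fold changes were -0.26 (adjusted p = 0.031 in limma) and -0.27 (adjusted p = 0.016). The call of Psmb6 was lost without GDM replicate 1 or 4 or CTR replicate 1 or 5 (adjusted p of 0.055 to 0.072), and both calls were lost when no filter was set (0.13 and 0.068). Psmb7 overlaps the coding gene Nek6 on the other strand, and the use of strand in counting is not given in the sources used here.

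Psmb5, of chymotrypsin-like activity, had 44.7, 47.4, 44.1, 49.0 and 48.6 FPKM in GDM samples and 54.9, 53.5, 46.7, 49.2 and 54.5 FPKM in CTR samples. Its log2 fold change of -0.14 did not pass as deposited (adjusted p = 0.086 in limma) and passed after scaling (-0.33). Psmb2, with 56.2, 65.9, 61.3, 54.0 and 52.9 FPKM against 63.8, 55.5, 52.3, 61.0 and 64.0 FPKM, had the smallest change of the ring, -0.03. Psmb1 and Psmb4 had log2 fold changes of -0.10 and -0.19. After scaling, all beta genes but Psmb2 were lower (6 of 7, beside 19.4% of all tested genes, median -0.38). In 5 of them every GDM sample lay below every CTR sample, beside 14.4% of all tested genes.

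Immunoproteasome subunits were present at a small fraction of their constitutive counterparts and did not pass the test as deposited. Psmb8 had 0.745, 0.817, 0.568, 0.672 and 0.788 FPKM in GDM samples and 0.896, 1.49, 0.567, 1.23 and 1.33 FPKM in CTR samples. Psmb9 had 0.299, 0.386, 0.509, 0.1001 and 0.261 FPKM against 0.633, 0.713, 0.373, 0.402 and 0.601 FPKM. Psmb10 had 3.36, 4.64, 4.35, 3.70 and 3.15 FPKM against 4.07, 6.16, 3.27, 4.88 and 5.39 FPKM. In all 3 genes the highest value was in CTR replicate 2 and the groups overlapped. Their log2 fold changes as deposited were -0.27, -0.24 and -0.24 with adjusted p of 0.33, 0.25 and 0.20 in limma, the first 2 from the fit without a filter. For Psmb9 the 95% interval was -0.46 to -0.02 and the exact permutation p 0.0476, both before adjustment. After scaling Psmb10 was lower (-0.39, adjusted p = 0.049), and for the other 2, below the filter, only scaled log2 fold changes are given, -0.36 for Psmb8 and -0.29 for Psmb9.

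Ratios within a library, which no scaling between libraries can change, overlapped too. Psmb8 was 1.29% to 1.72% of Psmb5 in GDM samples (mean 1.53% ± 0.192, SD, n = 5) and 1.21% to 2.80% in CTR samples (2.12% ± 0.663). Psmb9 was 0.143% to 0.675% of Psmb6 and 0.453% to 0.953%, and Psmb10 was 7.24% to 9.95% of Psmb7 and 6.52% to 13.4%. CTR replicate 2 had the highest ratio in each of the 3 pairs. Without it, the CTR means were 1.95%, 0.569% and 8.17%. Psmb9 overlaps Tap1, a peptide transporter gene, on the other strand.

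**Figure D3:**
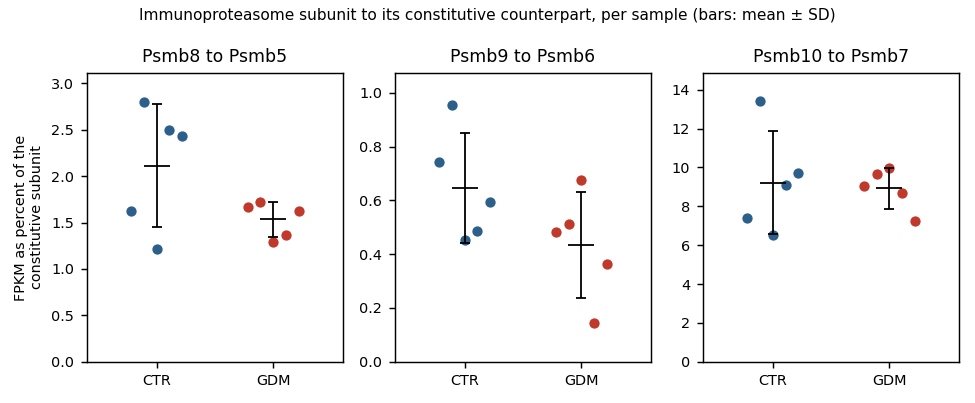
FPKM of each immunoproteasome subunit as a percent of the constitutive subunit it replaces, 1 point per sample with mean ± SD (n = 5 per group). CTR samples range from 1.21% to 2.80% for Psmb8 to Psmb5 and GDM samples from 1.29% to 1.72%, and the groups overlap in all 3 panels.

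Because interferon induces these subunits and leukocytes are rich in them, related lists were read beside them. Of 14 tested interferon-inducible genes, 4 were lower, 0 higher and 10 did not pass (median -0.14), and after scaling 5 were lower and 0 higher. Over all tested genes, 10.9% were lower and 35.1% higher as deposited, and 19.4% and 19.2% after scaling. Ifit3, an interferon-induced antiviral protein gene, changed by -0.77 on the log2 scale (adjusted p = 0.0036 in limma), and H2-D1, a class I antigen-presenting molecule, of -0.68 (0.011). Tap2, the partner of Tap1, had -0.48 (0.040), and Gbp2, a guanylate-binding protein gene, -0.51 (0.046). The call of Tap2 was lost in 6 and that of Gbp2 in 8 of the 10 fits that left out a library. When no filter was set, H2-D1, Tap2 and Gbp2 no longer passed (adjusted p of 0.079, 0.20 and 0.23 in limma). Of 14 tested leukocyte markers, 3 were lower as deposited (S100a8, S100a9 and Mrc1) and 0 higher, and after scaling 6 were lower, with Cd52, Csf1r and C1qa added. The calls of S100a8 and Mrc1 were lost without a filter (adjusted p of 0.059 and 0.12 in limma). The 18 listed summed to 175 to 267 FPKM in GDM samples and 248 to 401 FPKM in CTR samples. The defining leukocyte marker Ptprc was low in both groups, 0.295 to 0.424 FPKM and 0.326 to 0.530 FPKM, and Cd3e, a T cell gene below the filter, had 0.058 to 0.149 FPKM in GDM samples and 0.0001 to 0.029 FPKM in CTR samples, 4 of them at the floor. Cd3e was thus higher in every GDM sample, by 0.15 on the log2 scale (adjusted p = 0.0050 in limma without a filter). Its values lie near the floor, where the greater depth of the GDM libraries cannot be told apart from group. The other listed markers below the filter, Cd79a, Itgam and Ptprc, had log2 fold changes of -0.47, -0.29 and -0.09, which did not pass in that fit. The part of leukocytes in the immunoproteasome levels was not tested.

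The tissue-restricted core subunits were near the limit of detection. Psma8, an alpha subunit of the testis, had 0.114, 0.228, 0.343, 0.0195 and 0.232 FPKM in GDM samples and 0.0243, 0.247, 0.106, 0.148 and 0.0985 FPKM in CTR samples, which overlapped. Psmb11, the beta subunit of the thymus, was at the floor in 2 GDM and 3 CTR samples and had 0.0118, 0.00969 and 0.0156 FPKM in GDM replicates 2, 3 and 5 and 0.0257 and 0.00656 FPKM in CTR replicates 4 and 5.

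In the 19S base, which holds the ring of ATPases Psmc1 to Psmc6 and the scaffolds Psmd1 and Psmd2, Psmd4 was lower and the other 8 genes did not pass (median -0.10). Psmd4, a receptor for ubiquitin chains (ENSMUSG00000005625, chr3:95032694-95042614), had 32.5, 39.2, 33.3, 31 and 30.7 FPKM in GDM samples and 41.9, 39.5, 37.4, 43.0 and 45.5 FPKM in CTR samples. GDM replicate 2 was the sole GDM sample within the CTR range, and the log2 fold change was -0.31 (standard error 0.08, adjusted p = 0.0090 in limma).

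Among the ATPases, Psmc2 had 18.9, 18.7, 17.8, 18.0 and 18.1 FPKM in GDM samples and 23.1, 19, 17.2, 23.6 and 23.2 FPKM in CTR samples. The CTR samples of Psmc2 fell into 3 high and 2 low values, and the log2 fold change of -0.19 did not pass (adjusted p = 0.095 in limma). Psmc3 had 61.0, 75.3, 66.1, 66.0 and 67.5 FPKM against 79.7, 64.2, 73.2, 74.0 and 94.3 FPKM, also -0.19 (adjusted p = 0.14). Psmc6 had 30.7, 32.8, 32.4, 30.8 and 32.4 FPKM against 35.0, 29.6, 31.8, 34.1 and 30.1 FPKM, a log2 fold change of -0.01 with a 95% interval of -0.14 to 0.12. Those of Psmc1, Psmc4, Psmc5, Psmd1 and Psmd2 lay between -0.11 and 0.02. After scaling, 8 of 9 base genes were lower (beside 19.4% of all tested genes) and Psmd2 did not pass, with a median of -0.29.

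In the 19S lid, Psmd8 was lower and the other 7 genes did not pass (median -0.13). Psmd8, a lid scaffold subunit (ENSMUSG00000030591, chr7:29174188-29180701), had 32.0, 37.5, 33.2, 34.6 and 32.5 FPKM in GDM samples and 42.8, 44.8, 43.4, 38.6 and 42.4 FPKM in CTR samples. The groups did not overlap, and the adjusted p in limma was the smallest of the lower members, 0.0021 as deposited (log2 fold change -0.31, standard error 0.06) and 2.3e-04 scaled (-0.50).

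Psmd6 had 26.6, 35.8, 32.6, 29.1 and 30.9 FPKM in GDM samples and 39.6, 30.6, 34.0, 41.6 and 43.0 FPKM in CTR samples. Its log2 fold change of -0.27 did not pass (adjusted p = 0.062 in limma) and passed without GDM replicate 2 or CTR replicate 2 (0.039 and 0.018). Psmd12 had 31.7, 36.7, 34.5, 31.5 and 36.9 FPKM against 40.8, 33.4, 37.7, 41.4 and 39.1 FPKM (-0.16, adjusted p = 0.099). Psmd3, the steadiest lid gene, had 27.2, 29.2, 29.6, 28.2 and 26.7 FPKM against 27.8, 28.1, 28.3, 29.2 and 27.4 FPKM, a log2 fold change of 0.00 as deposited and -0.18 scaled. Psmd14, the lid deubiquitinase, had -0.05, and Psmd7, its partner, 0.10, while Psmd11 and Psmd13 had -0.10 and -0.18. After scaling, all lid genes but Psmd7 were lower (7 of 8, beside 19.4% of all tested genes, median -0.31). Psmd13 overlaps Sirt3 on the other strand.

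**Figure D4:**
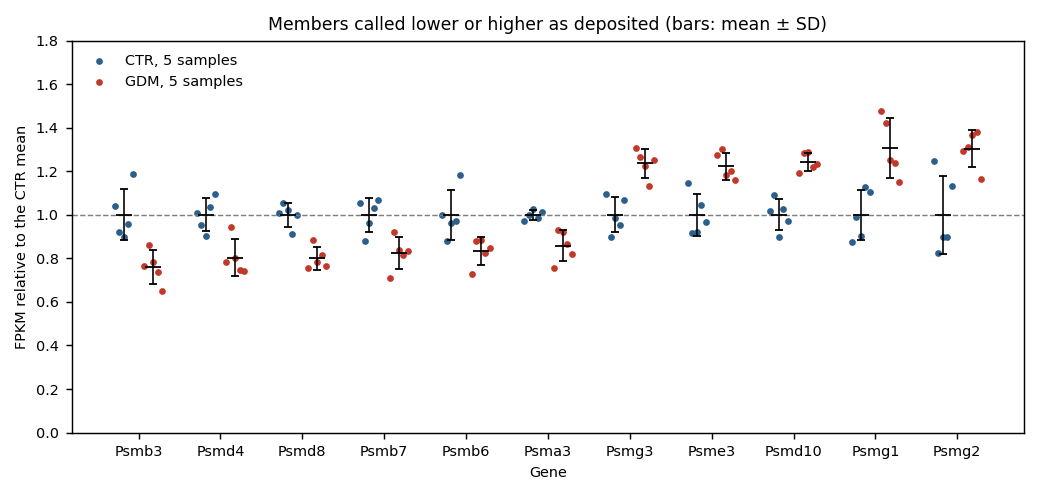
FPKM relative to the CTR mean for the 11 proteasome genes that passed the test as deposited, 1 point per sample with mean ± SD (n = 5 per group). The 6 subunits on the left have lower GDM means, and Psme3 and the 4 chaperones on the right have higher GDM means, which no longer passed after median ratio scaling.

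Among the activators and PI31, Psme3 was higher and the other 5 did not pass (median -0.03). Psme3 encodes PA28 gamma, a nuclear cap of the core that works without ATP (ENSMUSG00000078652, chr11:101316213-101323537). It had 27.5, 28.1, 25.5, 25.9 and 25.0 FPKM in GDM samples and 24.7, 19.8, 19.9, 22.6 and 20.9 FPKM in CTR samples. The groups did not overlap, with the lowest GDM sample close to the highest CTR sample. The log2 fold change was 0.28 (standard error 0.07, adjusted p = 0.0074 in limma) as deposited and 0.10 (adjusted p = 0.25) scaled.

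The other nuclear activator, Psme4 or PA200, had 11.9, 12.9, 13.0, 12 and 10.9 FPKM in GDM samples and 14.4, 12.8, 12.3, 13.1 and 12.5 FPKM in CTR samples, a log2 fold change of -0.10 that did not pass as deposited (scaled -0.27, adjusted p = 0.0054 in limma). Within each library Psme3 was 197% to 231% of Psme4 in GDM samples against 155% to 173% in CTR samples. This ratio was chosen after the values of both genes were seen, and its groups did not overlap.

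Psme1 and Psme2 encode the interferon-inducible activator PA28 alpha and beta. Psme1 had 12.4, 16.0, 15.1, 14.2 and 14.8 FPKM in GDM samples and 14.2, 15.8, 15.7, 14.2 and 14.9 FPKM in CTR samples, and Psme2 had 21.5, 20.8, 20.8, 19.9 and 20.7 FPKM against 19, 24.4, 19.8, 20.8 and 24.4 FPKM. Neither passed as deposited, with log2 fold changes of -0.04 and -0.05 and 95% intervals of -0.19 to 0.11 and -0.22 to 0.11. After scaling both were lower, with -0.22 (adjusted p = 0.040 in limma) and -0.24 (adjusted p = 0.028). Psme2b, a close copy of Psme2, had 10.8 to 15.0 FPKM in GDM samples and 10.1 to 14.2 FPKM in CTR samples, a log2 fold change of 0.05. Its values are uncertain, because 52.0% of its windows of 100 bases also occur in Psme2. Psmf1, which encodes PI31, had 1.70, 3.69, 3.48, 3.73 and 3.73 FPKM in GDM samples and 3.92, 3.57, 3.32, 2.03 and 3.73 FPKM in CTR samples. GDM replicate 1 and CTR replicate 4 were low, and the log2 fold change was -0.03.

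The assembly chaperones, which help to build the core and the base and leave the finished particle, had positive fold changes as deposited, while 26 of the 31 constitutive subunits had negative ones. As deposited 4 of 7 were higher, 0 were lower, all 7 log2 fold changes were positive, and the median was 0.25. After scaling 0 of the 7 passed in limma, the median was 0.09, and Psmd9 had a negative value (-0.03), while all 31 constitutive subunits had negative ones. Psmg1, Psmg2 and Psmg3 had scaled adjusted p of 0.096, 0.18 and 0.25 and Psmd10 of 0.12 in limma. Against all tested genes, 57.1% of the chaperones were higher as deposited beside 35.1%.

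Psmg1 (ENSMUSG00000022913, chr16:95979933-95990960) and Psmg2 encode the pair of chaperones that guides assembly of the alpha ring. Psmg1 had 19.1, 18.4, 16.2, 16.0 and 14.9 FPKM in GDM samples and 11.3, 12.8, 11.7, 14.6 and 14.3 FPKM in CTR samples. Psmg2 had 19.9, 20.2, 21.0, 21.2 and 17.9 FPKM against 19.2, 12.7, 13.8, 13.8 and 17.4 FPKM. All GDM samples of Psmg1 lay above the CTR samples, while in Psmg2 CTR replicate 1 lay above GDM replicate 5. Their log2 fold changes were 0.36 (standard error 0.09, adjusted p = 0.0075 in limma) and 0.38 (standard error 0.11, adjusted p = 0.015), and Psmg2 lost its call when no filter was set (0.089).

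Psmg3, which pairs with Psmg4, had 4.69, 4.55, 4.40, 4.06 and 4.50 FPKM in GDM samples and 3.93, 3.23, 3.53, 3.42 and 3.83 FPKM in CTR samples. It was higher without overlap (0.25, adjusted p = 0.0081 in limma), and shares its locus and strand with the coding gene Gm26938, so that its reads may be split. Psmg4, with 18.0 to 27.4 FPKM against 17.7 to 22.6 FPKM, had a log2 fold change of 0.18 that did not pass.

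Psmd10, or gankyrin, Psmd5 and Psmd9 are chaperones of the base. Psmd10 (ENSMUSG00000031429, chrX:140948429-140956728) had 14.9, 16.0, 16.1, 15.2 and 15.4 FPKM in GDM samples and 12.7, 13.6, 11.2, 12.8 and 12.1 FPKM in CTR samples. It was higher in all GDM samples than in any CTR sample, by 0.29 on the log2 scale (standard error 0.06, adjusted p = 0.0019 in limma), the smallest adjusted p of the members as deposited. Psmd5 had 2.98, 3.41, 3.00, 5.10 and 4.72 FPKM in GDM samples and 3.83, 2.27, 2.75, 2.95 and 3.69 FPKM in CTR samples. GDM replicates 4 and 5 of Psmd5 lay above the other samples, and the log2 fold change of 0.23 did not pass (95% interval -0.11 to 0.57). Psmd9 had a log2 fold change of 0.12 that did not pass.

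The geometric mean of the 7 chaperones was 9.23 to 10.2 FPKM in GDM samples and 7.17 to 8.63 FPKM in CTR samples, and that of the 31 constitutive subunits 35.4 to 41.7 FPKM and 38.8 to 43.8 FPKM. Within each library the chaperones stood at 27.5%, 23.5%, 24.3%, 27.3% and 24.9% of the subunits in GDM samples and at 19.6%, 18.5%, 18.5%, 18.5% and 19.7% in CTR samples. All GDM samples were above all CTR samples in this ratio, which scaling cannot change and which was chosen after the values were seen, so that no test is given. Leaving out each sample in turn gave group means of 25.0% to 26.0% and 18.8% to 19.1%. After scaling, the median log2 fold change was 0.09 for the chaperones and -0.30 for the subunits, beside 0.0 over all tested genes. The ratio thus holds the lower values of the subunits as well. Whether other genes set over these subunits would separate the groups too was not tested.

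**Figure D5:**
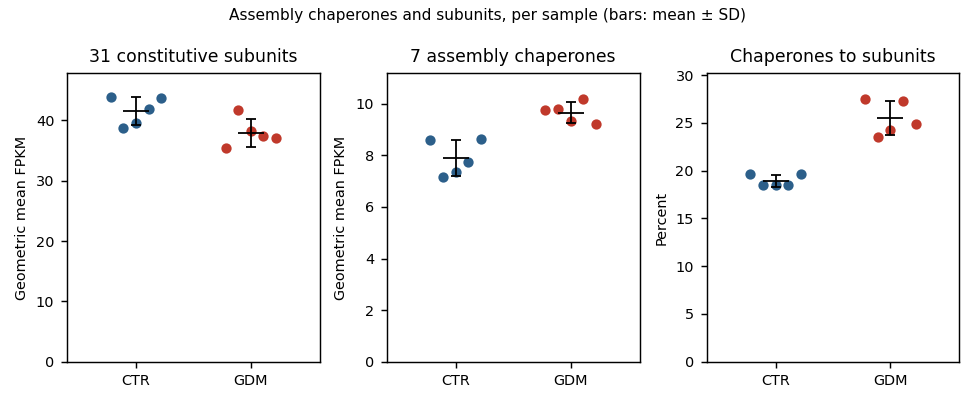
Geometric mean FPKM of the 31 constitutive subunits (left) and the 7 assembly chaperones (middle), and the latter as a percent of the former (right), 1 point per sample with mean ± SD (n = 5 per group). The percent is 23.5% to 27.5% in GDM samples, above the 18.5% to 19.7% of CTR samples.

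In the 11 members that passed as deposited, a two-sided exact permutation test of 5 against 5 samples gave 0.0079, the smallest p it can give, for the 7 whose groups did not overlap (Psma3, Psmb3, Psmd8, Psme3, Psmd10, Psmg1 and Psmg3). It gave 0.0159 for Psmb7, Psmd4 and Psmg2 and 0.0238 for Psmb6. Psmc3ip had 9.76, 5.06, 6.41, 7.57 and 8.97 FPKM in GDM samples and 6.89, 10.1, 8.72, 7.78 and 8.82 FPKM in CTR samples, and its log2 fold change of -0.17 did not pass. Of the pseudogenes left out, Psma5-ps had 5.62 to 8.38 FPKM and 6.99 to 8.73 FPKM, so that reads of Psma5 may be split. The sequence shared by Psma5 and Psma5-ps was not measured.

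Other parts of the proteasome and its supply of ubiquitin were measured under other names. Of 6 tested parts, Usp14 was higher, Adrm1 and Ecpas were lower and 3 did not pass, before and after scaling. Usp14, a deubiquitinase bound to the base, had 8.58 to 9.34 FPKM in GDM samples and 5.92 to 6.87 FPKM in CTR samples (0.39, adjusted p = 2.4e-04 in limma), and Adrm1, a ubiquitin receptor of the base, had 13.8 to 16.9 FPKM against 18.0 to 20.1 FPKM (-0.32, adjusted p = 0.0030). Neither gene's groups overlapped. Ecpas, an adaptor of the proteasome, had -0.18 (adjusted p = 0.020) and Sem1, a small lid subunit, 0.14 (0.11).

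Of 6 genes of ubiquitin and its activating enzymes, 4 were higher, 1 was lower and 1 did not pass (median 0.31). The fusion gene Rps27a (0.44) and the activating enzymes Uba6 (0.56) and Uba1 (0.34) were higher in limma. After scaling, Uba6 and Rps27a stayed past the threshold and Uba1 did not (0.16, adjusted p = 0.072). Of 10 shuttle factors and p97 genes, Ubqln2 (0.52) and Ubqln4 (0.30) were higher and 8 did not pass, among them Rad23b (0.16) and Nsfl1c (0.14). As deposited, 35.1% of all tested genes were higher and 10.9% lower.

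Regulators of proteasome genes were also read. Of 12 tested, 5 were higher, 0 lower and 7 did not pass (median 0.13, beside 0.15 over all tested genes), and after scaling 4 were higher and 1 lower. The higher shares stand beside 35.1% of all tested genes as deposited and 19.2% after scaling, so that nothing particular to this list is read from them. Nfe2l2, which encodes NRF2, the activator of antioxidant response elements, had 14.6, 14.2, 14.6, 15.6 and 17.0 FPKM in GDM samples and 9.90, 10.2, 9.60, 11.9 and 11.5 FPKM in CTR samples. All GDM samples were higher (0.48, adjusted p = 5.0e-04 in limma, scaled 0.31, adjusted p = 0.011). Its small Maf partners Mafg and Maff were higher as well, with log2 fold changes of 0.46 (adjusted p = 7.3e-05) and 1.13 (5.3e-04), and so was Ddi2 (0.42, adjusted p = 5.5e-04), the protease that activates NRF1. These 4 passed after scaling too. The other listed small Maf gene, Mafk, did not pass as deposited (-0.04, adjusted p = 0.80 in limma) or scaled (-0.19, adjusted p = 0.19). Ngly1 did not pass as deposited (-0.21, adjusted p = 0.052 in limma) and was the 1 lower gene after scaling (-0.37, adjusted p = 0.0053).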

How the data were processed

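RNA-seq values of foetal limb muscle were analysed, 5 GDM and 5 CTR samples, grouped by their labels. The deposited FPKM values were made by the authors, with HISAT2 2.0.4 and StringTie 1.3.4d per the submitters' processing notes, which give mm10 as the build, while the methods name an Ensembl release. edgeR and DESeq2 are named there without a role. Genes without signal are listed at 0.0001 FPKM. The authors' columns of fold changes, p-values and q-values were not used.

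The whole table was fitted with limma 3.58.1 (trend, robust, two-sided, no covariate) in R 4.3.3, with Benjamini-Hochberg adjustment over 13363 genes at a threshold of 0.05. Members below the filter have values from a fit without it. FPKM carries no counts, so no counting intervals are given. Of 55401 identifiers, 55141 were found in GENCODE, whose GRCm38 coordinates are printed. RefSeq starts can differ from these, in some genes by far more than a few bases. Some promoter windows therefore lie inside the GENCODE span of their gene. Among them are those of Psmb8 and of Psmd9 (window chr5:123227940-123228189, gene chr5:123169413-123250131). Exact permutation tests used numpy 2.4.6 in Python 3.11.15, and the 95% intervals used scipy 1.17.1. Plots were made with matplotlib 3.10.9, and tables with pandas 2.3.3, numpy and, in R, data.table (version 1.17.8). The fit was tested on simulated data.

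The members and lists were chosen with earlier results of these data known. Values in every sample are given for immunoproteasome subunits and their counterparts, for Psme1, Psme2, Psme3, Psme4 and Psmf1, and in each other group of members for up to 3 genes with the smallest and the gene with the largest adjusted p. Other lists give up to 4 genes of smallest adjusted p. Ptprc, Adipoq, Psmg2 (in every sample), Psmg4, Nfe2l1, Mafk and Ngly1 were named after their values were seen. Paaf1 and Psme3ip1 were not analysed here, and some listed genes are not reported here. Alternatives were a pseudocount of 0.1, no filter, at least 1 FPKM in every library, median ratio scaling, quantile normalization, a replicate block and leaving out each library. Leaving out each library after median ratio scaling was added after seeing the data.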

Additional observations from a re-analysis of the deposited data

Results flagged for a closer look

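In 5 of 100 groups of 5 samples, the highest or lowest sample lay far from the others by Dixon's test (critical value 0.71), about the share of 1 in 20 that chance gives. Psma1 had 40.5 FPKM in GDM replicate 2 and 34.5 to 35.4 FPKM in the other GDM samples. Psme2b had 15.0 FPKM in the same sample and 10.8 to 11.7 FPKM in the others. Psmf1 had 1.70 FPKM in GDM replicate 1 and 3.48 to 3.73 FPKM in the other GDM samples. Psmd2 had 42.5 FPKM in CTR replicate 1, above the 34.6 to 36.7 FPKM of the remaining CTR samples. Psmb11 had 0.0257 FPKM in CTR replicate 4, and the next CTR sample had 0.00656 FPKM.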

How the results depend on the processing

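Scaling between libraries moved the results most. Higher members numbered 5 as deposited, 0 after median ratio scaling and 1 after quantile normalization, and lower members 6, 30 and 17. Under median ratio scaling, the log2 fold change turned from positive to negative in Psma1 (-0.07), Psma4 (-0.18), Psmd2 (-0.16), Psmd3 (-0.18), Psmd7 (-0.08), Psmd9 (-0.03), Psme2b (-0.13), Sem1 (-0.04), Rad23b (-0.03) and Nsfl1c (-0.04), and under quantile normalization in Psma4 (-0.01), Psmd2 (-0.05), Psmd3 (-0.10), Psmd9 (-0.03) and Psme2b (-0.10). None of these passed the test before scaling, and Psmd3 alone of them passed after it.

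Leaving out each sample in turn gave 5 higher members throughout and 5 to 10 lower members, with 10 without CTR replicate 2 and 10 without CTR replicate 3. After median ratio scaling it gave 0 to 1 higher members, the 1 without CTR replicate 1, and 21 to 30 lower members. Values near 0 changed sign in these fits, within -0.07 to 0.0014 for Psma5, -0.04 to 0.04 for Psma4, -0.08 to 0.0003 for Psmb2, -0.01 to 0.07 for Psmd2, -0.04 to 0.02 for Psmc6, -0.02 to 0.02 for Psmd3, -0.08 to 0.01 for Psme1, -0.03 to 0.12 for Psme2b and -0.15 to 0.13 for Psmf1. The causes were not tested.

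A pseudocount of 0.1, and a minimum of 1 FPKM in all samples, changed no call among the 46 tested members, and without a filter 4 were higher and 4 lower. The replicate numbers of the titles were also used as a block. Same-numbered samples did not deviate together (correlations of -0.07 to -0.02), and no sample correlated best with its own number. The labels do not say whether such samples share more than a number. With the replicate block 5 members were higher and 4 lower, and Psmb6 (adjusted p = 0.066 in limma) and Psmb7 (0.063) no longer passed. Depth is known only as an estimate, and genes below 1 FPKM, such as Psmb8 and Psmb9, are the least precise.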

Other observations

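Nfe2l1, which encodes NRF1, an activator of proteasome subunit genes, varied between samples of both groups. It had 34.7, 7.58, 34.6, 4.88 and 38.4 FPKM in GDM replicates 1 to 5 and 34.3, 40.3, 44.2, 33.3 and 4.30 FPKM in CTR replicates 1 to 5, and its log2 fold change of -0.45 did not pass the test (adjusted p = 0.64 in limma). How reads were assigned among the transcripts of Nfe2l1 is not given in the sources used here, so these values are uncertain.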
